A study of Mus musculus with 2 samples.

Results

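The genes described here are 10 markers of periosteal and mesenchymal progenitors, Prrx1, Pdgfra, Pdgfrb, Ly6a, Cd34, Lepr, Cxcl12, Acta2, Dpt and Pi16. They were found by symbol, and all 10 are among the 19430 genes in the count tables of the fracture callus. The list was drawn up with earlier results of these data known. Bone repair draws on progenitors that lie in the periosteum, in the marrow and around vessels, and no single gene marks them. Prrx1 is a transcription factor of limb mesenchyme, and Pdgfra and Pdgfrb encode the receptors for platelet-derived growth factors, with Pdgfrb also carried by pericytes. Cxcl12, a chemokine that retains blood progenitors, and Lepr, the leptin receptor, are known from marrow stromal cells, whereas Dpt and Pi16 mark fibroblasts that are found in many tissues. Acta2, the smooth muscle actin gene, is active in vessel walls and in myofibroblasts, Cd34 in vessel endothelium and fibroblasts, and Ly6a (Sca-1) in several stem cell populations.

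Visium spatial transcriptomes were made from tibial calluses of a Cre-negative control (Nf1+/fl) and of its Nf1Postn littermate (Postn-cre;Nf1fl/-), 1 mouse of each genotype. In Nf1Postn mice, Cre from the periostin promoter removes the floxed Nf1 allele in the periosteum. The other allele is already null, inherited from an Nf1+/- parent. The paper reports that periostin protein is found more widely in the callus after injury, and the extent of the deletion there was not measured here. Per the methods both were female, and their age is given as 8 weeks in the deposited description and as 2 months in the methods. The distal tibia was cut and held with an intramedullary pin. Calluses were taken at day 10, and formalin fixation was followed by decalcification (14% EDTA, about 3 days). Both calluses lay in a common block, and 2 sections of it were analyzed, which the labels number as biological replicates but which are not separate animals. The control carries 1 floxed Nf1 allele without Cre, and the way in which spots were assigned to a genotype is not given in the sources used here.

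In the probe-based assay for fixed tissue, each unique molecular identifier (UMI) is a ligated probe pair counted at a known spot, and a spot covers a small region that may contain more than 1 cell type. Section 1 had 1700 control and 1341 Nf1Postn spots and section 2 had 1778 and 1556, with median depths of 7053 and 2030 UMIs in section 1 and 5718.5 and 3239.8 in section 2. A further 5 spots had no genotype. The sections share 2711 position barcodes, which is a property of the slide and not of shared cells. Levels are pooled CPM, that is, a gene's summed UMIs relative to the total of the same spots, on the usual CPM scale. The targeted gene Nf1 was counted at 87.8 CPM in control and 65.6 in Nf1Postn in section 1 and at 79.0 and 49.6 in section 2. These are log2 ratios of -0.42 and -0.67, which were -0.23 and -0.10 when spots were matched by region as described below for the markers. Whether its probes lie in the deleted part is not given in the sources used here. With 1 mouse per genotype no test was run, and the 95% intervals given for single values cover counting error only.

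Depth differed widely among the markers. Over both sections, Cxcl12 (ENSMUSG00000061353; mm39 chromosome 6, 117145496 to 117158329) had 15377 UMIs and Prrx1 (ENSMUSG00000026586; chromosome 1, 163072688 to 163141280) had 13989. Acta2 (ENSMUSG00000035783; chromosome 19, 34218490 to 34232991) had 5722, Dpt (ENSMUSG00000026574; chromosome 1, 164624213 to 164651836) had 5436, Pdgfra (ENSMUSG00000029231; chromosome 5, 75312953 to 75358877) had 4561 and Pdgfrb (ENSMUSG00000024620) had 6446. Cd34 (ENSMUSG00000016494; chromosome 1, 194621127 to 194643588) had 4142 UMIs, Pi16 (ENSMUSG00000024011; chromosome 17, 29536654 to 29549568) had 2607 and Lepr (ENSMUSG00000057722; chromosome 4, 101574601 to 101672550) had 369. These totals depend on probe and transcript, and they are no order of abundance between genes.

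Ly6a (ENSMUSG00000075602; chromosome 15, 74866726 to 74869881) was hardly detected. It had 5 UMIs in the control and 3 in the Nf1Postn callus of section 1, and 3 and 5 in section 2. These counts are 0.369, 0.866, 0.247 and 0.836 CPM. Over both sections 0.230% of control spots (95% interval 0.0994% to 0.453%) and 0.207% of Nf1Postn spots (0.0760% to 0.450%) held a UMI of this gene. The pooled ratio was not distinguishable from equal levels at this depth, with a log2 of 1.44 and an interval of -0.17 to 3.06. Ly6a did not reach the 50 UMIs in each section that were required of a gene in the counts below, so these counts cover 9 of the 10 markers.

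Over the whole callus, Cxcl12 and Acta2 had the largest pooled ratios between genotypes among the 9 markers counted, and both were lower in Nf1Postn. Cxcl12 was counted at 528 CPM in control and 283 in Nf1Postn in section 1, and at 488 and 220.2 in section 2. Acta2 stood at 193 and 109.8 CPM in section 1 and at 187 and 76.5 in section 2. For both genes the 2 Nf1Postn values lay below the 2 control values, and the share of all genes with this order was not counted. The log2 ratio of Nf1Postn to control was -0.90 (95% interval -0.99 to -0.80) and -1.15 (-1.24 to -1.06) for Cxcl12, and -0.81 (-0.97 to -0.66) and -1.29 (-1.44 to -1.14) for Acta2. Over both sections control exceeded Nf1Postn 2.09-fold for Cxcl12 and 2.14-fold for Acta2. The share of spots with a UMI of Cxcl12 was 79.4% in control and 40.6% in Nf1Postn, and it was 34.4% and 19.5% once spots were thinned to 1000 UMIs to remove the difference in depth. In such spots, fewer cells with a transcript and less transcript per cell cannot be told apart.

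Prrx1 and Pdgfra were lower in Nf1Postn by less. Prrx1 had 422 CPM in control and 368 in Nf1Postn in section 1 and 435 and 287 in section 2. Pdgfra had 137 and 122 CPM in section 1 and 143 and 90.4 in section 2. For both genes the Nf1Postn values lay below the control values, an order that was not counted over all genes, and section 2 showed the larger difference. The log2 ratios of section 1 were -0.20 and -0.17, beside a median of 0.056 over all genes, and those of section 2 were -0.60 and -0.66, beside -0.21.

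The other receptors and fibroblast markers did not hold a direction over both sections or differed little. Pdgfrb was higher in Nf1Postn in section 1 (239 against 173 CPM) and lower in section 2 (159 against 191). Cd34 behaved likewise, with 123 against 108 CPM in section 1 and 111 against 130.4 in section 2. Lepr, at 13.9 against 10.5 and 6.18 against 11.6 CPM, also changed sides, and it rests on 48, 143, 37 and 141 UMIs. Dpt was higher in Nf1Postn in section 1 (187 against 123 CPM) and level in section 2 (170.4 against 173). Pi16 was slightly higher in Nf1Postn in both sections, at 76.3 against 67.0 CPM and 88.7 against 74.5.

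**Figure D1:**
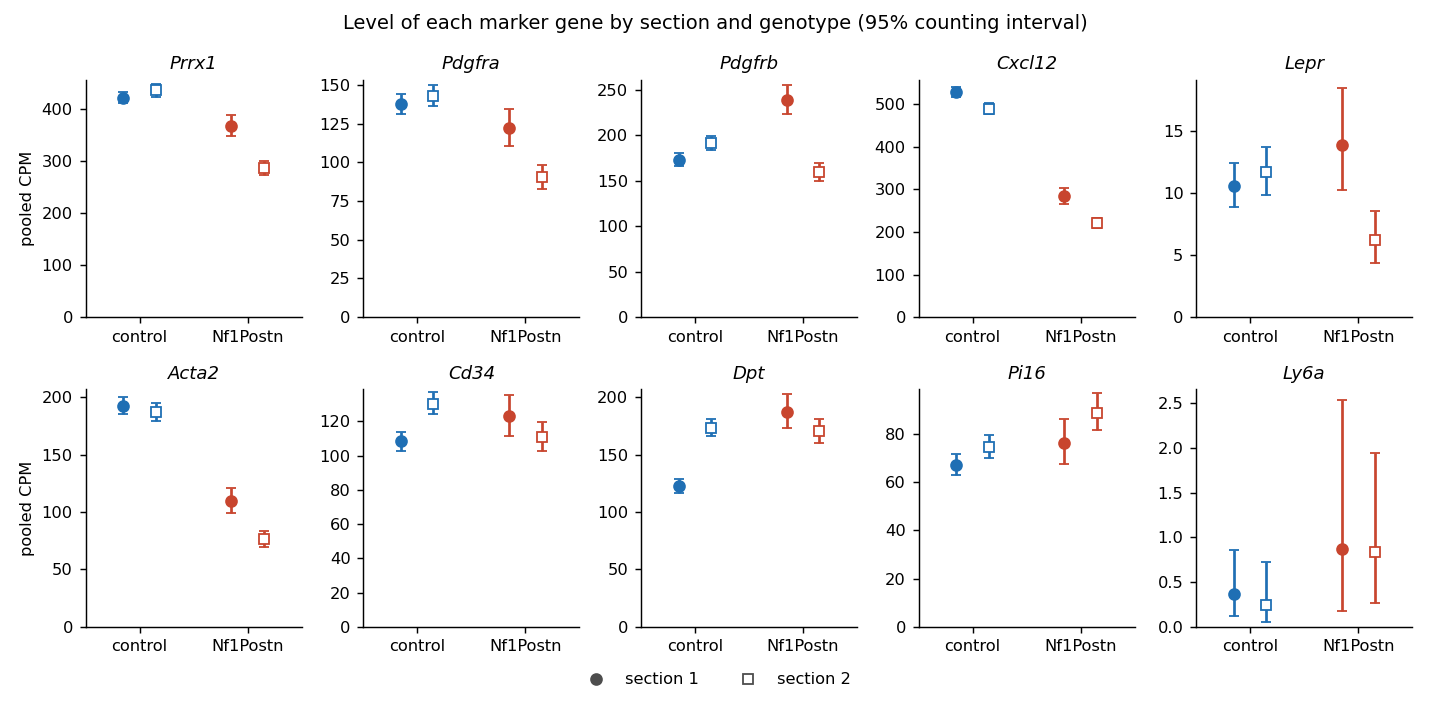
Pooled CPM of each of the 10 markers on the vertical axis, with a panel for each gene, by genotype (blue control, red Nf1Postn) and section (filled circles section 1, open squares section 2), with 95% counting intervals as bars. Cxcl12 and Acta2 are lower in both Nf1Postn sections, at 283 and 220.2 CPM for Cxcl12 against 528 and 488 in control, whereas Pdgfrb, Cd34 and Lepr change sides between sections.

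None of the 9 markers with enough UMIs differed by 2-fold or more the same way in both sections of the whole callus, but with TMM scaling 2 markers were at least 2-fold lower, beside 2.69% of all genes. Of the 11852 genes that met the same minimum, 4.21% were at least 2-fold higher in Nf1Postn in both sections and 1.58% at least 2-fold lower. The markers' median log2 ratio was 0.18 in section 1 and -0.60 in section 2, beside 0.056 and -0.21 over all genes. Pooled over both sections it was -0.30, beside -0.094 over all genes. The tissue on the slide was not the same in the 2 genotypes. Clusters led by muscle genes held 9.71% and 6.47% of control spots in sections 1 and 2, but 22.4% and 46.0% of Nf1Postn spots. Clusters with globin genes among their leading genes held 6.88% and 9.11% of control and 56.9% and 28.9% of Nf1Postn spots. They include cluster 1, of whose 41 named spots 85.4% were distal cortical bone, and cluster 13, led by Rxrg and Thap1 with Hba-a2 next. All 8 genes of a skeletal muscle list were at least 2-fold higher in Nf1Postn in both sections, and their summed level was 15339 and 24860 CPM in control and 70232 and 123083 in Nf1Postn. With the muscle-led and these clusters left out, 0 of 9 markers passed 2-fold in both sections. Of 11315 genes, 0.919% were higher and 0.574% lower by as much. The pooled log2 ratio was then above 0 for Prrx1 (0.17), Cd34 (0.26), Lepr (0.31), Pdgfrb (0.54), Dpt (0.66) and Pi16 (0.99). It was below 0 for Pdgfra (-0.065), Cxcl12 (-0.54) and Acta2 (-0.75).

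The genotypes were therefore also compared within regions. Spots were clustered on genes other than the markers and the listed genes, which gave 13 clusters, and levels were compared in each section and cluster and weighted into a single Mantel-Haenszel ratio, a comparison chosen after seeing the data. A pairing of section and cluster needed at least 10 spots of each genotype, and its cluster at least 20 of each over both sections, which left 18 pairings. Over all genes the median of this matched log2 ratio was -0.00075 in section 1 and 0.015 in section 2. Acta2 had matched log2 ratios of -1.09 and -1.08, and it was the 1 marker of 9 at least 2-fold lower in both sections, where 0.295% of 11852 genes were lower and 0.371% higher by as much. No marker was at least 2-fold higher. Cxcl12 followed with -1.01 and -0.59. With cluster 8 in section 2 added, which has 17 control spots, the section 2 ratios were -1.08 for Acta2 and -0.59 for Cxcl12.

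Matching by cluster did not even out the cell types. Of the cartilage genes 7 of 8 were still lower in Nf1Postn in both sections, with a median matched log2 ratio of -0.73, and the medians were -1.15 for 5 adipocyte genes, -0.45 for 8 osteoclast genes and 0.34 for 7 Schwann cell genes. Hbb-bs, a globin gene, had a ratio of 1.38 and Sox10, a Schwann cell transcription factor, of 2.27. The part of this remaining difference in the ratios of Acta2 and Cxcl12 was not tested.

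Cxcl12 was lower in Nf1Postn in 18 of the 18 pairings, with log2 ratios from -2.15 to -0.31. The largest of these came from a shallow cluster with 8 Nf1Postn and 5 control UMIs. The pairing of cluster 8 that was left out had 32 Nf1Postn and 5 control UMIs of Cxcl12, at 141 and 278 CPM. Acta2 was lower in 15 of the 17 pairings with at least 5 UMIs in each genotype, and the 2 exceptions were cluster 2 in section 1 (0.19) and cluster 9 in section 2 (0.069). Both genes were lower in the muscle-led cluster 3 and in cluster 4. In cluster 3 Cxcl12 had log2 ratios of -1.13 and -0.94 and Acta2 of -0.95 and -1.20. These rest on 18 Nf1Postn UMIs of Cxcl12 and 12 of Acta2 in section 1. In section 2 they rest on 17 control spots with 15 and 11 UMIs. In cluster 4, led by Gpnmb and Fbn2, Cxcl12 had -1.08 and -0.61 and Acta2 -1.08 and -1.94. In that cluster Acta2 rests on 36 and 30 Nf1Postn UMIs against 1037 and 1027 in control. All pairings come from 1 mouse per genotype and are not replicates. How many of all genes are lower in as many pairings was not counted.

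The remaining markers had smaller or less stable ratios once matched. Prrx1 had matched log2 ratios of -0.14 and -0.083, and Pdgfra of -0.24 and -0.017. Pdgfrb was the single marker higher in Nf1Postn in both sections, at 0.22 and 0.21, and it was higher in 12 of 17 pairings. Cd34 was lower, at -0.31 and -0.26, but its pairings split 8 to 8 and ranged from -0.89 to 1.44. Dpt stood at 0.024 and -0.11 and split 8 to 8 as well. Pi16 differed between the sections, at -0.71 and 0.066. Lepr stood at 1.08 and -0.35, and it had at least 5 UMIs in both genotypes in only 3 pairings. The median over the 9 markers was -0.11, and 5 of them (Prrx1, Pdgfra, Cd34, Cxcl12 and Acta2) were lower in both sections by any amount, as were 28.7% of all genes, while Pdgfrb was higher, as were 30.9%. Prrx1 and Pdgfra are among these 5 with ratios near 0 in section 2.

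**Figure D2:**
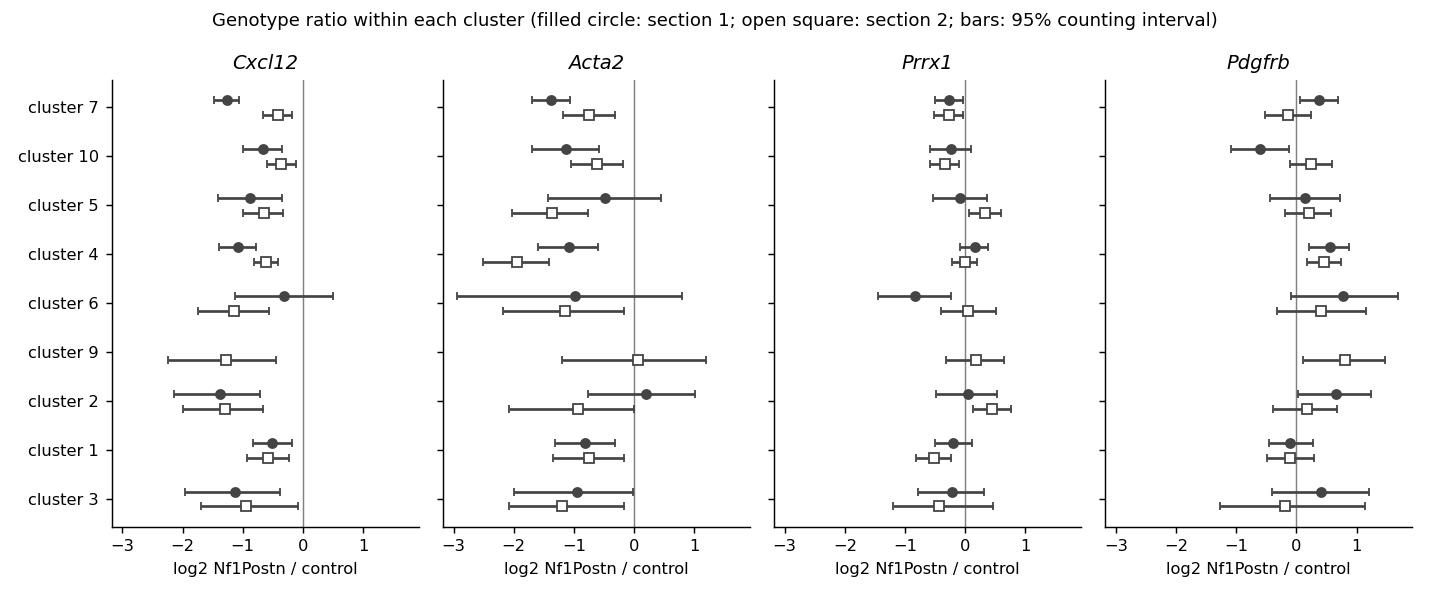
Log2 ratio of Nf1Postn to control CPM on the horizontal axis within each cluster on the vertical axis, for Cxcl12, Acta2, Prrx1 and Pdgfrb. Filled circles are section 1, open squares section 2, bars are 95% counting intervals, and a shallow cluster with 22 control spots is left out. All Cxcl12 points lie left of 0, and those of Acta2 do except cluster 2 in section 1 and cluster 9 in section 2, whereas Prrx1 and Pdgfrb scatter about 0.

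Pooled over both genotypes and sections, most markers were highest in the same region. Cluster 7, with 237 control and 205 Nf1Postn spots, was led by Cadm4, Cxcl14, Prg4, Myoc and Gap43, and 88.6% of its 123 spots with a name in the authors' supporting values were called progenitor there. Of the 13 clusters it had the highest pooled level of Prrx1 (556 CPM), Pdgfra (168), Cxcl12 (745), Acta2 (316), Cd34 (249.7), Dpt (382) and Pi16 (239). How large a share of all genes is highest in cluster 7 was not counted. In section 2 control, cluster 4 exceeded cluster 7 for Cxcl12 (772 against 680 CPM), Acta2 (275 against 244) and Pdgfra (176 against 172). There cluster 10 exceeded it for Pi16 (293 against 125) and Cd34 (281 against 251). Prrx1 and Dpt were higher in cluster 7 than in clusters 4 and 10 there. In Nf1Postn over both sections, Prrx1 had 548 CPM in cluster 4, 515 in cluster 2 and 496 in cluster 7. Pdgfra had 184 in cluster 2 and 153 in cluster 7. In the pooled spots, Pi16 was low in clusters 9 and 11, whose named spots were mostly cartilage, at 23.5 and 20.7 CPM. Pooled levels of Prrx1 and Cxcl12 were nearly as high in cluster 4 as in cluster 7, at 528 and 718 CPM. Of the named spots of cluster 4, 96.4% were ossifying perichondrium. The lowest level of Prrx1, Pdgfra, Pdgfrb, Cxcl12, Acta2 and Pi16 was in the muscle-led cluster 12, at 131, 29.5, 65.5, 78.6, 26.2 and 19.6 CPM.

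Cluster 7 also held markers of other cell types. The mural gene Myh11 was counted there at 168 CPM, against 27.4 to 82.7 in the other clusters, and Tagln at 339.6, against 42.6 to 193. Adipoq, made by fat cells, stood at 70.9 CPM against 1.56 to 41.3, and the summed level of 12 universal fibroblast genes was 4246 CPM against 848 to 3365. Their part in the levels of the progenitor markers was not tested.

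The 3 muscle-led clusters differed from each other. Cluster 10, led by Tnnt2, Myh3 and Myh8, had 219.8 CPM of Cd34, 327 of Dpt and 195 of Pi16, next to cluster 7 in each case. Clusters 3 and 12 had 65.8 and 52.4 CPM of Cd34, 91.1 and 62.2 of Dpt and 27.5 and 19.6 of Pi16. Acta1, the skeletal muscle actin, was at 15275 CPM in cluster 10, 23139 in cluster 3 and 25425 in cluster 12, while Acta2 was at 121, 71.1 and 26.2 CPM, so that the Acta2 counts did not follow those of Acta1.

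Pdgfrb and Lepr were spread otherwise. Pdgfrb was highest in cluster 1, led by Hba-a2 and Hbb-bt, at 268 CPM, followed by cluster 7 at 242. Lepr reached 18.0 CPM in cluster 2, led by Siglec15 and Slc36a2, in which 92.6% of named spots were woven bone, and 13.8 (9.41 to 19.4) in cluster 7. A higher value of 20.9 in the shallow cluster 13, whose median depth was 352.5 UMIs, does not rest on enough counts to be read.

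**Figure D3:**
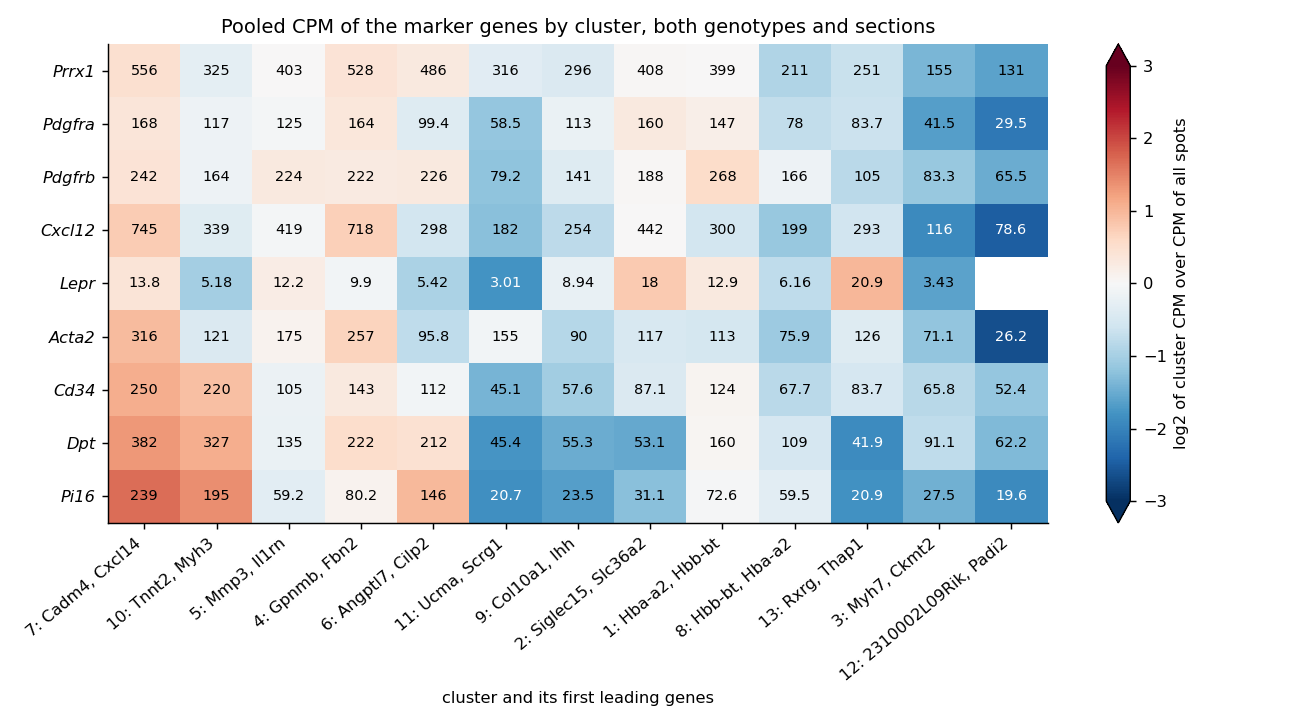
Pooled CPM of 9 markers (rows) in the 13 clusters (columns, with their first leading genes), both genotypes and sections together, printed in each cell. The color is the log2 of the cluster's CPM over that of all spots, from blue (lower) to red (higher), and a cell without UMIs is blank. Cluster 7 has the highest value in the rows of Prrx1, Pdgfra, Cxcl12, Acta2, Cd34, Dpt and Pi16, whereas Lepr and Pdgfrb peak elsewhere.

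The authors' own names were given for 1344 control spots of section 1. By pooled CPM, 8 of the 9 markers were also highest in their progenitor spots, all but Lepr. The share of all genes that are highest there was not counted. With spots thinned to equal depth, the 50 distal cortical bone spots exceeded them for Prrx1 (540 against 486 CPM) and Pdgfra (180 against 151). Pdgfrb (220 against 219), Dpt (340 against 336) and Acta2 (320 against 322) were nearly level. Cd34, Cxcl12 and Pi16 stayed highest in progenitor spots. Without thinning, the 95% intervals of distal cortical bone included the progenitor values of Prrx1, Pdgfra, Pdgfrb and Dpt. In the 146 spots named progenitor, Cxcl12 had 915 CPM. Ossifying perichondrium followed with 589 and woven bone with 517, and the lowest level, 227, was in cartilage. Pi16 had 292 CPM (95% interval 255 to 333) in the progenitor spots, against 26.6 in cartilage, 31.8 in woven bone, 71.2 in ossifying perichondrium and 112 in distal cortical bone. Acta2 had 432 CPM there and 92.6 in cartilage, and Cd34 had 272 and 46.3. Prrx1 hardly separated progenitor spots (525 CPM, 475 to 579) from ossifying perichondrium (502), and Pdgfra did not separate them from woven bone (168 and 159). Lepr was highest in woven bone, at 18.0 CPM (14.2 to 22.6), and 9.06 (3.64 to 18.7) in progenitor spots. The study named its clusters with expression in view, so these levels describe the named spots and are no independent evidence for the names.

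Within cluster 7, Cxcl12 and Acta2 again stood apart between genotypes. Cxcl12 had 1116 and 680.3 CPM in the control sections and 463 and 509 in the Nf1Postn sections. Acta2 had 542 and 244 CPM in control and 208 and 146 in Nf1Postn. For either gene both control values lay above both Nf1Postn values, an order that was not counted over all genes. The control sections differed by more than their counting intervals, which were 492 to 596 and 205 to 288 for Acta2. Prrx1 was slightly lower in Nf1Postn, at 497 and 494 CPM against 599 and 599.6. Pi16 reversed, with 366 and 125 CPM in control and 156 and 255 in Nf1Postn. Cd34 had 301 and 251 CPM in control and 162 and 257 in Nf1Postn, so its groups overlapped. In this cluster 8 markers reached 50 UMIs per section, and 0 of them were 2-fold different the same way in both, beside 0.503% of 4574 genes higher and 0.525% lower.

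Cxcl12 and Pi16 lay in visible patches. In the control callus Cxcl12 was high along the lower flank and at the right end of both sections, and Pi16 along the upper rim and at the right end. In the Nf1Postn callus Pi16 lay in patches along the side that faces the control callus and nearer the opposite side, and bright Cxcl12 spots were few.

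**Figure D4:**
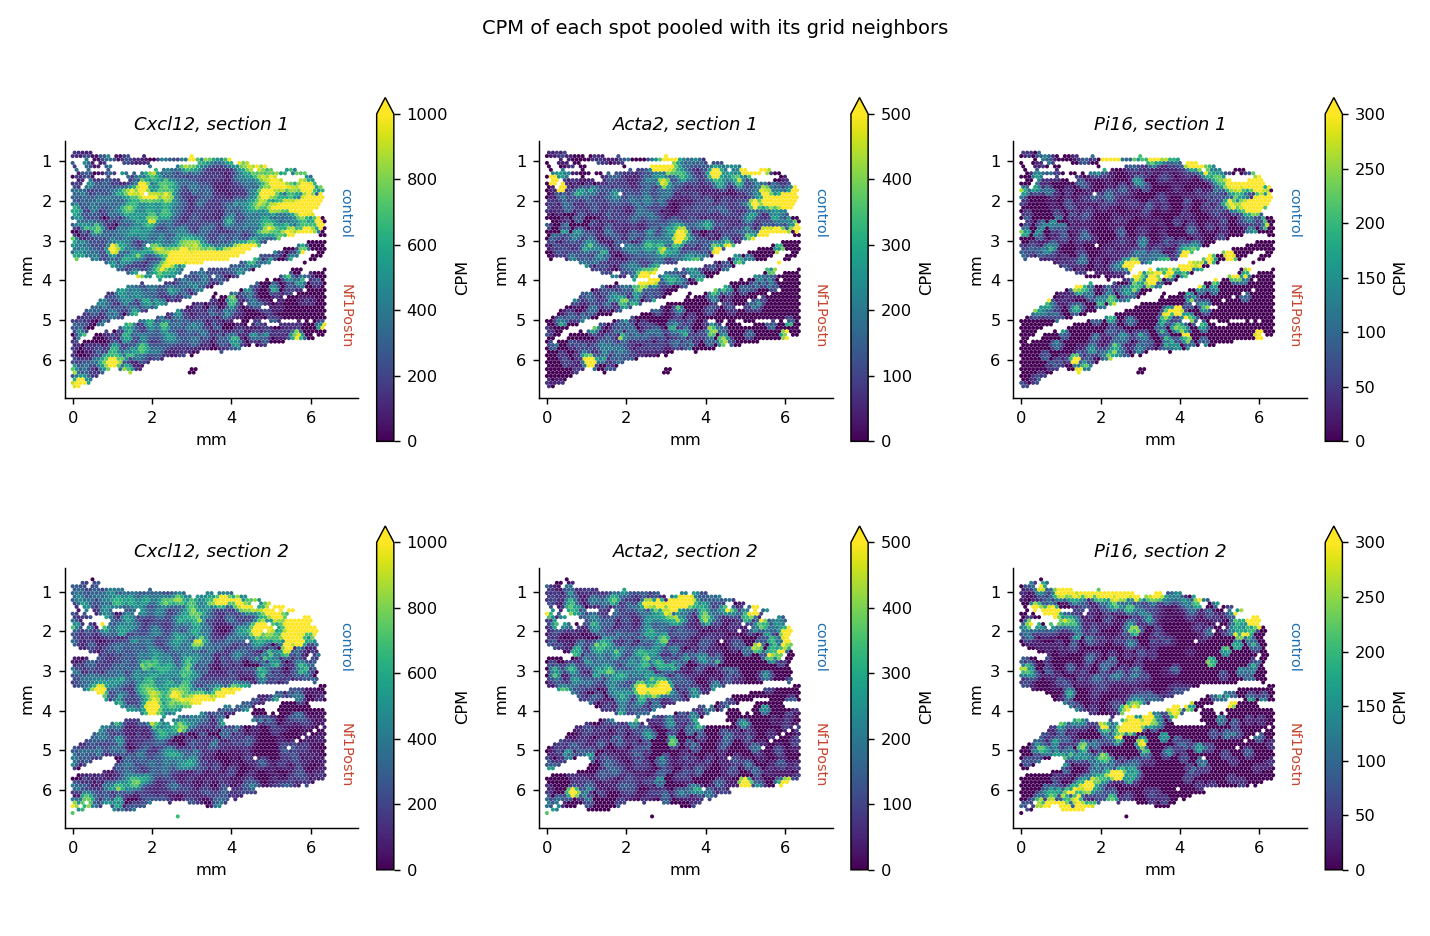
Maps of both sections with the control callus above and the Nf1Postn callus below; axes are in mm on the capture grid, and each dot is a spot colored by the CPM of the gene pooled over the spot and its grid neighbors. Color scales stop at 1000 CPM for Cxcl12, 500 for Acta2 and 300 for Pi16. Cxcl12 and Acta2 patches are larger in control in both sections, and Pi16 patches occur in both genotypes.

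Pi16, Dpt and Cd34 were higher along the outline of the control callus than inside it, and in the Nf1Postn callus edge and interior were closer. In section 1 the spots called edge were 523 of 1700 in control and 833 of 1341 in Nf1Postn. In section 2 they were 569 of 1778 and 596 of 1556. The edge class thus covers a larger share of the Nf1Postn callus, and the ratios of the 2 genotypes are not like for like. Within 2 grid steps of the tissue outline, Pi16 had 121 and 135 CPM in the control sections and 47.8 and 44.2 deeper in the tissue. In Nf1Postn it had 82.4 and 93.6 CPM at the outline and 69.8 and 86.0 inside. The log2 ratio of edge to interior was 1.47 in control over both sections (95% interval 1.34 to 1.61) and 0.13 in Nf1Postn (-0.080 to 0.33). Dpt had ratios of 1.48 and 1.45 in the control sections and 0.32 and -0.095 in the Nf1Postn sections. For Cd34 these were 1.14 and 0.97 in control and 0.081 and -0.014 in Nf1Postn. For all 3 genes both control ratios lay above both Nf1Postn ratios, as did the medians over all genes. These medians were 0.12 and 0.055 in the control sections and -0.068 and -0.014 in the Nf1Postn sections. The share of all genes with this order was not counted. The interval of each pooled Nf1Postn ratio includes 0. With both sections pooled, the median over all genes was 0.093 in control and -0.012 in Nf1Postn.

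Other markers were less tied to the outline. Cxcl12 had log2 ratios of edge to interior of 0.47 and 0.46 in control and -0.28 and -0.0052 in Nf1Postn. Those of Prrx1 were 0.19 and 0.20 in control and -0.31 and 0.025 in Nf1Postn. Acta2 had no stable position, at 0.70 and -0.34 in the control sections. Muscle-led clusters made up 21.3% of control edge spots and 1.97% of control interior spots, and 30.8% and 39.3% in Nf1Postn. With those clusters left out, Pi16, Dpt and Cd34 had log2 edge ratios of 1.31, 1.56 and 1.04 in control and 0.68, 0.42 and 0.39 in Nf1Postn. Spots at the edge held a median of 6210.5 UMIs in control and 2142.5 in Nf1Postn. The outline includes cut edges and holes, and its position relative to the periosteum was not measured.

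The distance from the fracture plane, which the study calls SpatialTime and scales from 0 to 25, was used for the same 1344 control spots of section 1. From the 297 spots nearest the plane (0 to 4) to the 200 farthest (20 to 25), all 9 markers were higher at the far end. The median log2 ratio over all genes, 0.14, was above 0 as well, and the share of all genes higher there was not counted. Pi16 was level over the first 4 bins and higher in the last, at 58.2, 46.8, 46.4, 58.3 and 170.4 CPM over the 5 bins. Its log2 ratio of far to near was 1.55 (95% interval 1.27 to 1.83), beside a median of 0.14 over all genes. Without thinning, a UMI of Pi16 was found in 34.0% of the nearest spots and 36.5% of the farthest. Cd34 went from 87.5 to 176 CPM (1.01) and Pdgfra from 96.3 to 168 (0.80), the latter already at 141 in the second bin. For Pdgfra the ratio was -0.12 when spots were thinned to 1000 UMIs.

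Cxcl12 was higher in each bin than in the bin before it, from 417 to 654 CPM (0.65), as were Prrx1, from 382 to 554 (0.54), and Pdgfrb, from 144 to 198 (0.46). Acta2 and Dpt dipped in the middle. Acta2 had 188, 223, 152, 155 and 275 CPM, and Dpt had 124, 122, 87.1, 91.9 and 192. Lepr alone peaked in the middle of the callus, at 3.73, 10.5, 20.8, 12.6 and 10.6 CPM, on 13, 28, 51, 26 and 15 UMIs. The interval of its peak (15.5 to 27.3) lay above that of the nearest bin (1.98 to 6.37) and overlapped those of the fourth and the fifth bin. For Acta2 the ratio of the outer ends changes direction when equal tertiles of the spots are compared (-0.092), so its profile is not a gradient. The same comparison gave 0.024 for Dpt.

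**Figure D5:**
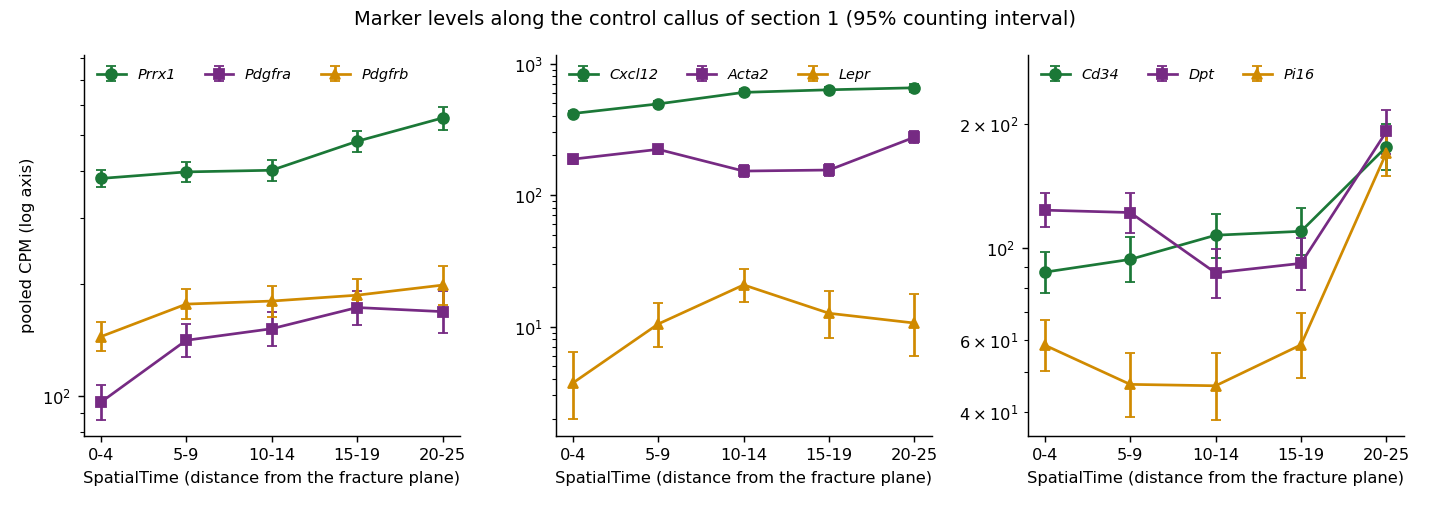
Pooled CPM (log axis) of 9 markers in 5 bins of distance from the fracture plane (SpatialTime) in the control callus of section 1, with 95% counting intervals. Pi16 stays between 46.4 and 58.3 CPM over the first 4 bins and reaches 170.4 in the last, whereas Lepr peaks at 20.8 in the middle bin.

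On a finer scale, clumping was measured as Moran's I, which is 0 for a gene without spatial pattern, over the 6 grid neighbors of spots thinned to 1000 UMIs. In control, Cxcl12 had 0.130 and 0.151 in sections 1 and 2 and Dpt had 0.135 in each. In Nf1Postn they had 0.0415 and 0.0810, and 0.0681 and 0.102. After thinning, Cxcl12 had 853 and 776 UMIs in control but 279 and 308 in Nf1Postn. The part of these counts in its lower values was not tested. Pi16 had 0.132 and 0.0672 in control and 0.0169 and 0.132 in Nf1Postn. The median over all genes was between -0.0011 and 0.0011 in the 4 calluses. Prrx1 and Pdgfra stayed at or below 0.0716 in each of them. Even so, 84.5% to 95.7% of all genes had a value at or below that of Prrx1. For Pdgfra this share was 51.8% to 89.7%.

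Markers covaried weakly over tiles of about 3 by 3 spots, of which the 4 calluses held 137 to 200 each. Tiles of a callus share its library, its mouse and differences in depth, and the correlations of log2(CPM + 1) are a description. The pairs with the highest lowest r were Cxcl12 and Dpt (0.30 to 0.47), Prrx1 and Cxcl12 (0.27 to 0.43), Cd34 and Dpt (0.26 to 0.54) and Dpt and Pi16 (0.25 to 0.39). Lepr was loosely tied to the rest, from -0.12 to 0.15 with Dpt. Acta2 followed the mural genes Tagln (0.21 to 0.40) and Myh11 (0.12 to 0.57) and ran against the muscle actin Acta1 (-0.29 to -0.12).

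For 5924 genes with 500 UMIs or more per section, those most like each marker in all 4 calluses were as follows, by the lowest of 4 correlations. Cxcl12 was closest to Vim (0.47), Apoe (0.45) and S100a6 (0.44), and Dpt to Col3a1 (0.46), Gnas (0.41) and Cd74 (0.40). Pi16 was closest to Igfbp4 (0.41), Ahnak (0.37) and S100a6 (0.35), and Cd34 to Col14a1 (0.34), Gm2a (0.32) and Loxl1 (0.30). Prrx1 was closest to Scarf2 (0.40), App (0.40) and Bicc1 (0.39), Pdgfra to Adamts10 (0.40), Lfng (0.38) and Gpr153 (0.35), and Pdgfrb to Ddah2 (0.38), Cpxm1 (0.37) and Cdc42ep1 (0.37). Acta2 had the lowest values, with Cavin3 and Col14a1 (0.31 each) and Pkd2 (0.29).

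The platelet-derived growth factor genes are the ligands of Pdgfra and Pdgfrb, and Pdgfa had 182 CPM in both genotypes of section 1 and 196 in control against 175 in Nf1Postn in section 2. Pdgfb had 129 against 107 and 122 against 104 CPM. Pdgfd was lower in Nf1Postn, at 83.8 against 60.4 and 88.8 against 43.4 CPM, with matched log2 ratios of -0.40 and -0.46. Pdgfc had 9.54 CPM in control and 6.25 in Nf1Postn over both sections, on 245 and 59 UMIs. Its matched log2 ratio over both sections was -0.28. In the list of 12 ligand and signaling genes, 0 passed 2-fold in either direction and the median matched log2 ratio was 0.0050, with Plat highest (0.60) and Pdgfd lowest (-0.44).

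The receptors of CXCL12 had fewer counts. Cxcr4, the signaling receptor, had 21.8 against 24.0 CPM in section 1 and 28.8 against 20.4 in section 2 (control against Nf1Postn), and Ackr3, the scavenging receptor, had 73.7 against 43.3 and 54.8 against 46.6. The leptin gene Lep had 19 UMIs in control and 12 in Nf1Postn, too few to compare, and Ly6c1 was not analysed here. Of 5 tested partners in this list 0 passed 2-fold.

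Among 14 mural cell genes, 11 were lower in Nf1Postn in both sections after matching and 2 were higher, where 28.7% of all genes were lower and 30.9% higher by any amount, with a median log2 ratio of -0.21. Myh11, the smooth muscle myosin, was lowest of those with 100 UMIs or more per section (-1.60 and -0.87), Tagln had -1.12 and -0.43, and Kcnj8, a pericyte potassium channel, was highest (0.33 over both sections). The 1 gene past 2-fold in both sections was Cnn1, another smooth muscle gene, named after its value was seen. Without matching, the summed level of this list was 2020 and 2436 CPM in control and 3255 and 3921 in Nf1Postn, and Des, which skeletal muscle also uses, had its highest ratio (1.68). Among 19 other progenitor and periosteal genes, 8 were lower and 4 higher in both sections, with a median of -0.18. Vcam1 was lowest (-0.63) and Mfap5 highest (0.56), and the 1 gene past 2-fold was Grem1, a BMP antagonist, which was lower and was also named after its value was seen.

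Marrow stromal genes were lower in both sections for 8 of 11 tested genes and higher for 0, with a median of -0.27, of which 2 passed 2-fold, Grem1 and Hp (-2.06). Endothelial genes were lower in both sections for 9 of 11, with a median of -0.18 and 0 past 2-fold, and Tie1 was lowest (-0.96). Universal fibroblast genes split, with 5 lower and 3 higher of 12, a median of -0.090, Clec3b highest (0.40) and Mfap4 lowest (-0.39). For each of these lists the share of all genes lower in both sections is the 28.7% given above, and the lists share genes and tissue with the markers.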

How the data were processed

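Spatial counts of 2 sections, each holding a control and a Nf1Postn callus, were used. Per the submitters' processing notes the authors used Space Ranger 1.3.0, and per the methods reads were aligned to mm39 and most analyses were run in Partek Flow. The deposited tables hold UMI counts per gene and spot, handled with the unit of expected counts because a few symbols that join several gene IDs hold means that are not whole. The authors' genotype name of each spot was deposited beside them, and region names and SpatialTime of control spots in section 1 came from their supporting values. These positions and names were used, and no expression value was taken from there.

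UMIs were pooled over spots and divided by all UMIs (CPM). Levels carry exact Poisson, shares exact Clopper-Pearson and ratios exact conditional binomial 95% intervals, which cover counting error only, as sections of 1 block are not replicates. Depth per callus ranged from 3462224 to 13562254 UMIs. Genes with 50 UMIs or more per section were compared at 2-fold in both sections. Own clusters used log2(CPM + 1) of genes in at least 0.3% of spots, without the markers and listed genes, centered per section, with 20 principal components, 15 neighbors and Leiden resolution 0.5 (Python 3.11.15, NumPy 2.4.6, SciPy 1.17.1, pandas 2.3.3, leidenalg 0.10.2, igraph 0.11.9). Tiles needed 5 spots and 5000 UMIs. The calculations were tested on simulated data.

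All 10 markers were named, with the 3 genes most like each marker (500 UMIs or more per section), the highest and the lowest gene of each list (100 UMIs or more per section), and chosen ligands, receptors and actin genes. Members and lists were chosen with earlier results of these data known. Alternatives were single sections, TMM factors, means of log2(CPM + 1), depth filters and thinning, omitted clusters, other resolutions, other bins and other edges. The matched ratio was chosen after seeing the data.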

Additional observations from a re-analysis of the deposited data

Results flagged for a closer look

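Some markers had genotype ratios of opposite sign in 2 regions, the same way in both sections. None of these differences was tested, and with sections of 1 block per mouse they describe these calluses. The values are log2 ratios of Nf1Postn to control in sections 1 and 2, for regions with at least 20 UMIs of the gene in each section. The pair of regions given for a gene was picked because its ratios lay farthest apart in sign. How many of all genes have such a pair was not counted, so the flag is not particular to these markers.

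Prrx1 had 0.043 and 0.45 in cluster 2, whose named spots were mostly woven bone. In cluster 7, whose named spots were mostly progenitor, Prrx1 had -0.27 and -0.28. Pdgfra had 0.074 and 0.31 in cluster 2 and -0.32 and -0.45 in cluster 4, whose named spots were mostly ossifying perichondrium. These names cover control spots of section 1 alone and no Nf1Postn spot. Pdgfrb had 0.55 and 0.46 in cluster 4 and -0.099 and -0.099 in cluster 1, led by globin genes. The counting interval includes 0 for Prrx1 in cluster 2 of section 1, for Pdgfra in cluster 2 of both sections and cluster 4 of section 1, and for Pdgfrb in cluster 1 of both sections.

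Cd34 had 1.05 and 1.44 in cluster 6, led by Angptl7 and Cilp2, and -0.99 and -0.88 in cluster 2. Dpt had 0.38 and 1.14 in cluster 6 and -0.79 and -0.35 in cluster 4. The counting interval includes 0 for Cd34 in cluster 2 of both sections and cluster 6 of section 1, and for Dpt in cluster 6 of section 1. Cluster 2 held 35 Nf1Postn spots and cluster 4 held 67, so these ratios rest on few Nf1Postn spots.

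The position at the tissue outline also differed in sign between genotypes for 2 markers. The log2 ratio of edge to interior for Pdgfra was 0.16 and 0.11 in the control sections and -0.25 and -0.27 in the Nf1Postn sections. For Cxcl12 it was 0.47 and 0.46 in control and -0.28 and -0.0052 in Nf1Postn. The counting interval includes 0 for Pdgfra in 3 of the 4 and for Cxcl12 in Nf1Postn of section 2. Medians over all genes had the same signs, at 0.12 and 0.055 in control and -0.068 and -0.014 in Nf1Postn. How many of all genes show these signs was not counted. Without muscle-led clusters the pooled ratios were 0.27 in control and 0.032 in Nf1Postn for Pdgfra, and 0.65 and 0.086 for Cxcl12, so the opposite signs were lost. These differences were not tested either.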

How the results depend on the processing

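Of the values recomputed under alternatives, 129 stayed within 1 SD between the 2 sections (far over near: within the counting interval, and counts of markers within 1.5 times), 94 moved further and 13 reversed, and the causes were not tested. Of the 129, 23 and 20 came from leaving out section 1 and section 2. For the ratios among these, the SD comes from the same 2 section values. Staying within it was thus nearly fixed in advance and shows no stability. They include Pdgfrb, with genotype ratios of 0.47 in section 1 and -0.27 in section 2. A genotype or edge ratio was counted as reversed only where the interval of its main value excluded 0. Sign changes in the genotype ratios of Pdgfrb, Cd34 and Lepr are therefore not among the 13. With log2 means over spots the genotype ratio was -3.46 for Cxcl12, -2.46 for Acta2, -0.71 for Dpt and -0.59 for Pi16. Without the muscle-led clusters and those with globin genes among their leading genes it was -0.54 for Cxcl12 and -0.75 for Acta2. In the same setting it was 0.17 for Prrx1, 0.54 for Pdgfrb, 0.66 for Dpt and 0.99 for Pi16. Matched by section and cluster it was -0.78 for Cxcl12, -0.063 for Dpt and -0.21 for Pi16. With cluster 8 in section 2 added it was -0.78, -0.061 and -0.21. In single sections the ratio of Dpt ranged from -0.024 to 0.61.

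The count of markers at least 2-fold lower was 2 with TMM factors (2.69% of all genes), and it ranged from 0 in section 1 alone (2.29%) to 2 in section 2 alone (6.17%). At least 1.5-fold lower were 2 markers (6.37%). With no filter on genes 1 of 10 markers, Ly6a, was at least 2-fold higher, as were 15.3% of all genes. Prrx1 in cluster 7 over all other spots had a log2 ratio of 0.52, and 0.32 at resolution 0.3, 0.65 at resolution 1 and 0.37 thinned to 1000 UMIs.

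The far over near ratio was -0.12 for Pdgfra after thinning, and for log2 means it was 0.19 for Lepr, -0.27 for Acta2 and 0.58 for Pi16. Between the lowest and highest tertiles it was -0.092 for Acta2 and 0.85 for Pi16. Lepr had too few UMIs for a thinned ratio.

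For the outline at 1 step, the control ratio was -0.038 for Pdgfra, 1.27 for Dpt and 1.24 for Pi16, and the Nf1Postn ratio of Pi16 was 0.43. Without muscle-led clusters it was 1.56 for Dpt in control, and 0.39 for Cd34, 0.42 for Dpt and 0.68 for Pi16 in Nf1Postn. In single sections it ranged from -0.34 to 0.70 for Acta2 and from 1.45 to 1.48 for Dpt in control, and from 0.12 to 0.24 for Pi16 in Nf1Postn.

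No paired analysis was possible because each genotype is 1 mouse and no result comes from a test. Ratios within each section are given throughout.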
